A study of Mus musculus with 12 samples.

Results

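Cilp, Cthrc1, Itih2 and Mgat5b are 4 of the 27179 genes in the count table of mouse hearts examined here. They were chosen by their own measured values, namely few reads in sham-operated hearts and a strong rise after transverse aortic constriction (TAC), a surgical narrowing of the aorta that loads the left ventricle. The difference between TAC and sham is therefore given for these genes as a description, without a test. The choice stated no numeric limit, so no gene can be named as just inside or just outside it. All 4 passed the filter on low counts that left 13626 genes for testing. Cthrc1, Itih2 and Mgat5b could pass it only through their TAC libraries.

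The hearts came from 15-week-old offspring of dams that had breathed filtered air or diesel exhaust from embryonic day 0.5 until shortly before birth. All offspring were raised in filtered air, underwent echocardiography at 11 weeks, and had TAC with a 27-gauge needle or a sham operation at 12 weeks. RNA from frozen heart, depleted of ribosomal RNA, was sequenced on an Ion Torrent instrument with 4 samples per run. The 4 groups held 3 libraries each: filtered-air sham, filtered-air TAC, diesel sham and diesel TAC. No strain, sex, litter or run assignment is stated in the sources used here. Littermates may therefore share a group, and the p-values measure the spread between these 12 libraries.

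Of the 4 products, 3 are secreted. Cilp encodes cartilage intermediate layer protein, a matrix glycoprotein made by chondrocytes and, in the heart, by fibroblasts, and known to bind TGF-beta and to restrain its signalling. Cthrc1 encodes collagen triple helix repeat containing 1, a glycoprotein of activated fibroblasts and injured arteries that has been linked to collagen turnover and noncanonical Wnt signalling. Itih2 encodes a heavy chain of the inter-alpha-trypsin inhibitor, a plasma protein made mainly by the liver whose heavy chains are passed to hyaluronan in the extracellular matrix. Mgat5b is the exception to a description as a secreted factor: it encodes a Golgi N-acetylglucosaminyltransferase, best known from brain, that branches O-mannose glycans on other proteins.

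By RefSeq coordinates on mm10, with strand and exon bases from GENCODE M21, Cilp lies on chromosome 9 (65265180 to 65280614, plus strand) with 4252 exon bases. Cthrc1 lies on chromosome 15 (39076932 to 39087121, plus strand) with 1593 exon bases. Itih2 lies on chromosome 2 (10094591 to 10130683, minus strand) with 3315 exon bases. Mgat5b lies on chromosome 11 (116918853 to 116986944, plus strand) with 4596 exon bases. No other gene annotated in GENCODE M21 overlapped any of the 4. Values below are counts of reads assigned to the whole gene, and CPM, the usual per-library read count scale. For CPM, library sizes and their trimmed mean of M-values (TMM) factors came from the 13626 genes that passed the low-count filter.

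The 250 bases before the RefSeq start (GRCm38.p6) were read for Cilp, Itih2 and Mgat5b (the table used holds no entry for Cthrc1), and are shown because the 4 genes were all higher in TAC hearts and their start regions could be compared letter by letter. Each is printed 5′ to 3′ on the gene's own strand, with the matched motif in capitals. The Cilp promoter is chr9:65264930-65265179 on the plus strand, the Itih2 promoter chr2:10130684-10130933 on the minus strand and the Mgat5b promoter chr11:116918613-116918862 on the plus strand. The Mgat5b stretch ends past the gene start of 116918853 given above, so its last bases lie within the gene as placed there. Motif positions for Mgat5b are counted back from the end of the printed stretch.
Cilp: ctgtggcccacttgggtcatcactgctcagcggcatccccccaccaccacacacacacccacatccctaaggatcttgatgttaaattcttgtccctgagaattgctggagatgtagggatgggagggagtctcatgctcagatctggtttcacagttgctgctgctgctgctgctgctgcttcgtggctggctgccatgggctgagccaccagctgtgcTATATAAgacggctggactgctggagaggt
Itih2: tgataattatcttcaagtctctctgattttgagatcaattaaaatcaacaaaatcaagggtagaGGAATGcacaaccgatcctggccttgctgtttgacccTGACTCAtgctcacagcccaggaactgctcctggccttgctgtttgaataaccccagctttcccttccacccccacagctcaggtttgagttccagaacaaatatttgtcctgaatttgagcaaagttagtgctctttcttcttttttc
Mgat5b: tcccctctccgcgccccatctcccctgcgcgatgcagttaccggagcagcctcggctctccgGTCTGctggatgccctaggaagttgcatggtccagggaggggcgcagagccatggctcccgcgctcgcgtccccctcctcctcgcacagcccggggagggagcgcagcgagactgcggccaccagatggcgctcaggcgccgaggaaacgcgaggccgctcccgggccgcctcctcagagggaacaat

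The 3 promoters shared no motif among those searched. Cilp carried TATATAA at 30 to 24 bases before the start. This variant of the TATA box was present in 2.05% of 32851 promoters of the same length, and TATAAA, also searched on the gene's strand alone, in 7.59%. Itih2 carried an AP-1 motif, TGANTCA, at 149 to 143 bases before the start, and the TEAD motif GGAATG at 186 to 181 bases. Searched on both strands, these were present in 6.75% and 12.6% of promoters. Mgat5b carried the short SMAD motif CAGAC on the opposite strand, at 188 to 184 bases, a motif found in 42.2% of promoters on either strand. The full palindrome GTCTAGAC was found in 0.167% of promoters and in none of these 3. The base composition also differed. Mgat5b held 25 CpG dinucleotides, more than 89.3% of promoters, Cilp held 3 and Itih2 held 1.

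The 12 libraries held 5534685 to 13265816 counts, so that a library with 0 counts of a gene allows up to 3 counts, which was 0.218 to 0.501 CPM. The 10 markers of ventricular cardiomyocytes summed to 84330 to 154059 CPM, so the label of heart tissue held in every library. Between 18.3% and 32.4% of counts fell on mitochondrially encoded genes. The libraries that stood apart were 4 that carried reads of the hepatocyte gene Alb, which encodes serum albumin, above 10 CPM: filtered-air TAC replicate 2 with 211 counts, diesel sham replicate 2 with 432, diesel TAC replicate 1 with 774 and diesel TAC replicate 2 with 2967. The other 8 libraries held 0 to 93 Alb counts. Since Itih2 is itself a liver gene, its log2 ratios and its exposure difference in TAC hearts are given below with and without these 4 libraries. The same is done for some other results, and the remaining values include all libraries.

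Cilp was the most abundant of the 4 genes and was not low in sham. Its counts were 117, 111 and 95 in filtered-air sham and 97, 126 and 79 in diesel sham, a mean of 14.8 CPM over the 6 sham hearts that exceeded 55.3% of the genes tested. After TAC the counts were 941, 2202 and 1172 in filtered air and 3553, 2361 and 3103 after diesel exhaust. Every TAC library lay far above every sham library. In CPM the means were 14.7 ± 2.05 in filtered-air sham, 176 ± 87.7 in filtered-air TAC, 14.9 ± 5.32 in diesel sham and 277 ± 27.9 in diesel TAC (SD, n = 3 each). The ratio of summed counts, after scaling for library size, was 12.1 in filtered air (95% counting interval 10.8 to 13.6) and 18.9 after diesel exhaust (16.8 to 21.2). Such intervals cover counting error only and not the spread between hearts. The 3 filtered-air TAC hearts spread widely, from 112 to 276 CPM, and the 3 diesel TAC hearts lay between 258 and 309 CPM.

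Cthrc1 was close to absent from sham hearts. Its counts were 3, 0 and 1 in filtered-air sham and 0, 0 and 2 in diesel sham. After TAC they were 7, 24 and 7 in filtered air and 45, 10 and 26 after diesel exhaust. The means were 0.160 ± 0.159 and 1.56 ± 1.25 CPM in filtered-air sham and TAC, and 0.0962 ± 0.167 and 2.32 ± 1.10 CPM in diesel sham and TAC (SD, n = 3 each). All 3 TAC libraries exceeded all 3 sham libraries in both exposures, and TAC libraries of 1 exposure spread widely, from 0.834 to 3.01 CPM in filtered air and from 1.12 to 3.26 after diesel exhaust. With 38 against 4 counts the scaled ratio was 8.61 in filtered air (counting interval 3.10 to 33.2). With 81 against 2 counts it was 25.6 after diesel exhaust (6.87 to 215). The upper bound is wide because the sham count is so small. One library decided much of the filtered-air value, whose log2 ratio of 3.11 became 4.32 without sham replicate 1 and 2.23 without TAC replicate 2.

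Itih2 had few counts in sham hearts, 9, 1 and 5 in filtered air and 2, 2 and 0 after diesel exhaust. TAC hearts held 11, 34 and 16 counts in filtered air and 44, 82 and 42 after diesel exhaust. In CPM, filtered-air sham averaged 0.637 ± 0.430 and filtered-air TAC 2.49 ± 1.56, while diesel sham averaged 0.197 ± 0.175 and diesel TAC 5.51 ± 3.19 (SD, n = 3 each). The groups did not overlap in either exposure, but the gap in filtered air was narrow: the highest sham library had 0.953 CPM and the lowest TAC library 1.31 CPM. The scaled ratio was 3.68 in filtered air (61 against 15 counts, counting interval 2.07 to 6.98) and 26.6 after diesel exhaust (168 against 4 counts, 10.2 to 98.6).

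The Alb reads moved with Itih2 in part. Diesel TAC replicate 2 was the highest library for both genes, at 331 CPM of Alb and 9.15 CPM of Itih2. Filtered-air TAC replicate 2 was the highest of its group for both, at 26.4 and 4.26 CPM. In other libraries the genes parted: diesel sham replicate 2 held 432 Alb counts and 2 Itih2 counts, and filtered-air TAC replicate 1 held 0 Alb counts and 11 Itih2 counts. The 12 listed hepatocyte markers summed to 31.6 to 35.8 CPM in filtered-air sham, 42.2 to 103 CPM in filtered-air TAC, 28.3 to 177 CPM in diesel sham and 63.2 to 642 CPM in diesel TAC. Most of the sum in libraries with few Alb counts came from 1 listed gene, Trf. It held 23.8 to 33.0, 37.5 to 58.1, 27.3 to 60.3 and 44.1 to 137 CPM in the same order of groups. The part of the hepatocyte markers in the Itih2 values was not tested. Without the 4 libraries above 10 CPM of Alb, the log2 ratio of Itih2 was 1.26 in filtered air and 4.96 after diesel exhaust. With them it was 1.88 and 4.73. The diesel value without them rests on 1 TAC library, replicate 3, with 42 counts against 2 and 0 in sham replicates 1 and 3. That TAC library itself held 9.25 CPM of Alb, just under the limit. Filtered-air TAC replicate 2 is the 1 library of the 4 in the filtered-air comparison, and the value refitted without it alone was 1.27.

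**Figure D1:**
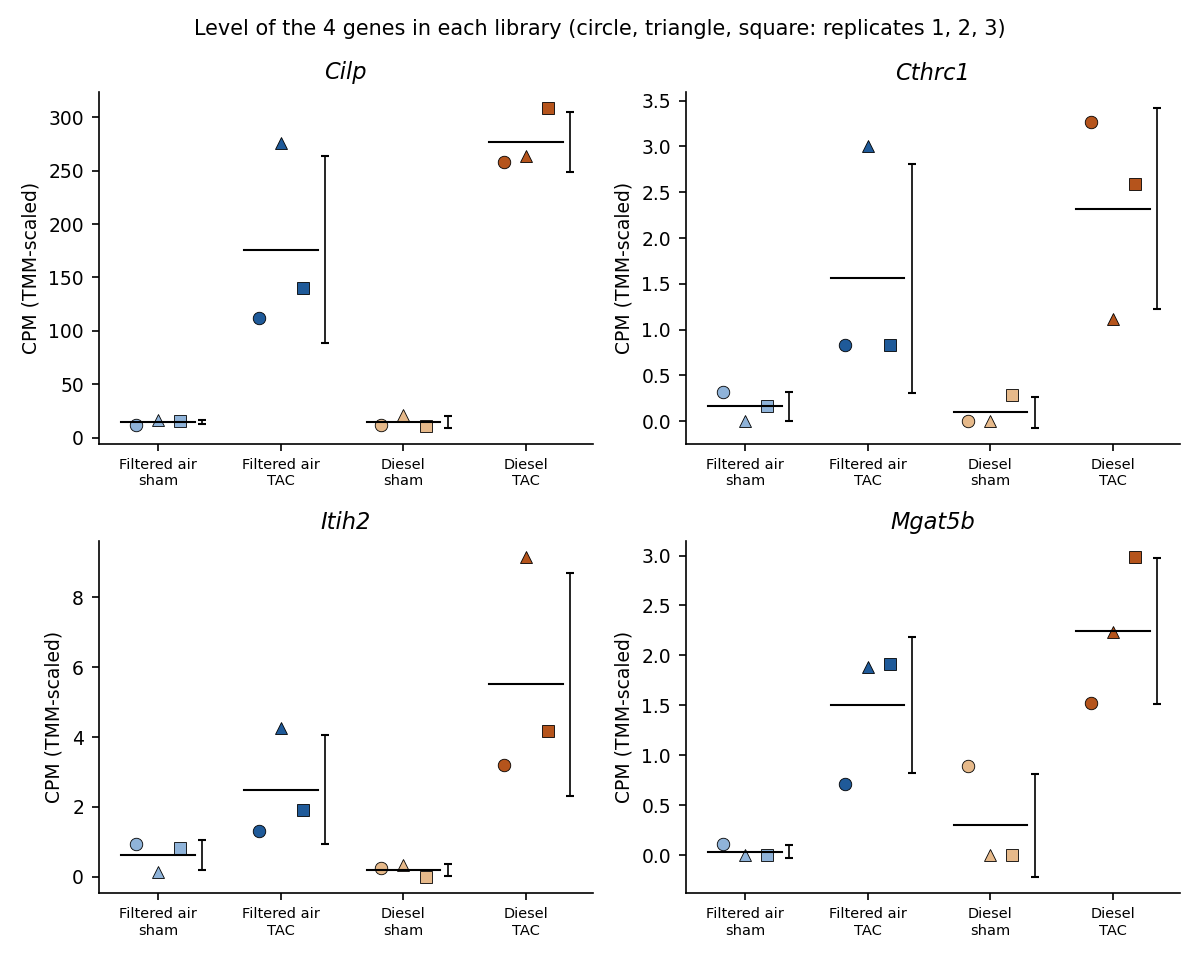
Level of each gene in every library, in TMM-scaled CPM on linear axes, with replicates 1, 2 and 3 drawn as circle, triangle and square, the group mean as a line and the SD as a bar beside it (n = 3). All TAC libraries lie above the sham libraries of the same exposure, and replicate 2 is the highest filtered-air TAC library for Cilp, Cthrc1 and Itih2.

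Mgat5b had 1, 0 and 0 counts in filtered-air sham and 7, 0 and 0 in diesel sham. TAC hearts held 6, 15 and 16 counts in filtered air and 21, 20 and 30 after diesel exhaust. All TAC libraries exceeded the sham libraries of the same exposure, and diesel sham replicate 1 was the only sham library above 1 count. The means were 0.0353 ± 0.0611 CPM in filtered-air sham, 1.50 ± 0.682 in filtered-air TAC, 0.298 ± 0.516 in diesel sham and 2.25 ± 0.730 in diesel TAC (SD, n = 3 each). The scaled ratio was 33.5 in filtered air, where it rested on 37 against 1 count (counting interval 5.65 to 1359). After diesel exhaust it was 6.42, from 71 against 7 counts (2.96 to 16.5). Without diesel sham replicate 1 that group held 0 counts. Mgat5b was thus at 0 in 4 of 6 sham hearts and detected in 6 of 6 TAC hearts.

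Per kilobase of exon, Cilp was the only 1 of the 4 at the level of the established fibrosis genes. Its mean reached 41.4 CPM per kb in filtered-air TAC and 65.0 in diesel TAC. Postn, which encodes the matricellular protein periostin, reached 38.1 and 65.1, and Col1a1, a chain of type I collagen, 25.9 and 39.6. The other 3 stayed far below: in diesel TAC, Itih2 reached 1.66, Cthrc1 1.46 and Mgat5b 0.489 CPM per kb. The order of Itih2 and Cthrc1 was the reverse in filtered-air TAC, at 0.752 and 0.979 CPM per kb, and their libraries overlapped on that scale in both TAC groups. Nppb, the natriuretic peptide gene used as a marker of load, stood at 456 and 540 CPM per kb.

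All 4 genes had TAC libraries wholly above sham libraries in both exposures. Among all genes tested the same was seen for 8.2% in filtered air and 11.1% after diesel exhaust. Nothing is read from this count, because the genes were selected on that contrast. Among the 13626 fitted log2 differences, ordered from the highest, Cilp ranked 34 in filtered air and 18 after diesel exhaust, Cthrc1 55 and 14, Itih2 165 and 9, and Mgat5b 19 and 68. The 2 contrasts share no libraries, but the genes were chosen for their rise after TAC, so nothing is read from these ranks either.

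**Figure D2:**
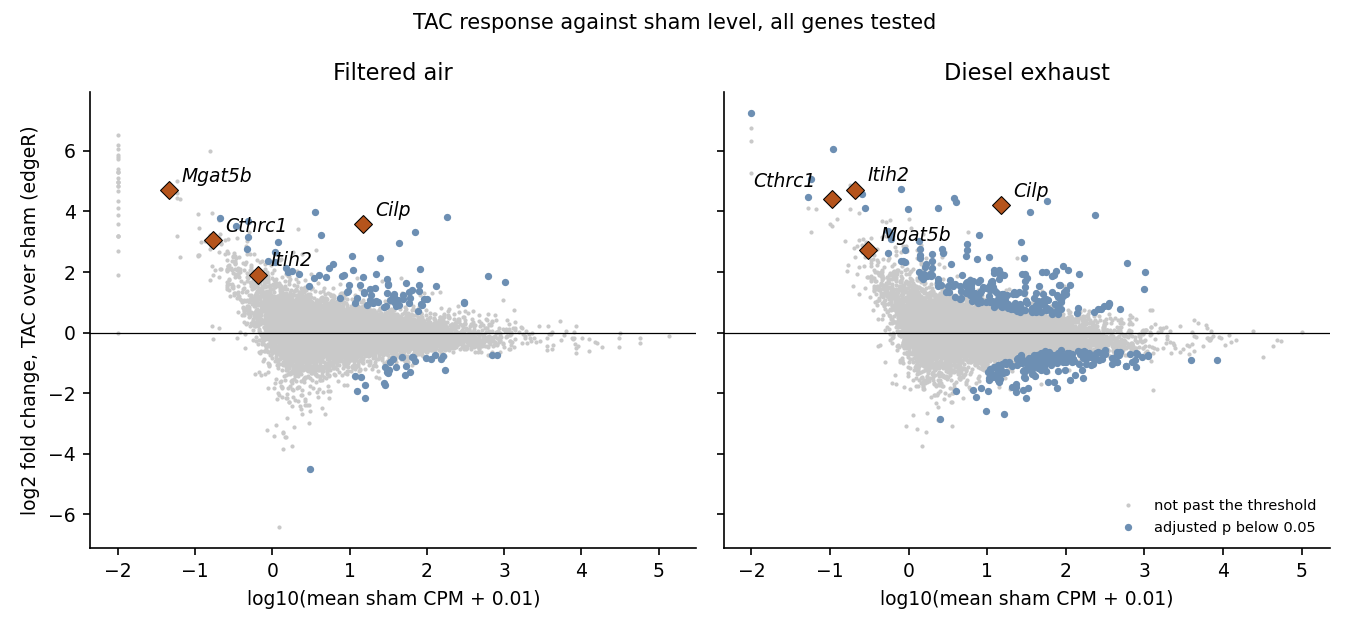
Fitted log2 difference between TAC and sham for every gene tested, against log10 of the mean sham CPM plus 0.01, in filtered air (left) and after diesel exhaust (right), with the 4 chosen genes as diamonds and genes past an adjusted p of 0.05 in blue. Cilp sits near 14.8 CPM in sham, and the other 3 genes sit at the low end of the sham scale, where many genes with few reads also have large fitted differences.

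The comparison the choice of genes did not use directly is that of prenatal exposure, although the TAC libraries of both exposures entered the choice. In edgeR's quasi-likelihood test with Benjamini-Hochberg adjustment, 0 of 13626 genes (0%) differed between diesel and filtered-air TAC hearts, with 255 at an unadjusted p under 0.05 and 1 called by DESeq2. Between sham hearts 0% were called by edgeR, with 503 genes at an unadjusted p under 0.05 and 0 by DESeq2. For the interaction, which asks whether the TAC response differed between exposures, 0% were called by edgeR, with 327 at an unadjusted p under 0.05 and 1 by DESeq2. The gene DESeq2 called was Ptprf in both cases, and none of the 4 genes described here.

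Cilp was 0.65 ± 0.29 log2 higher in diesel than in filtered-air TAC hearts (SE, 95% interval 0.04 to 1.27). Its unadjusted edgeR p was 0.0392 and its adjusted p 0.999972, so the difference did not hold after correction. The groups overlapped, because filtered-air TAC replicate 2, at 276 CPM, lay above diesel TAC replicates 1 and 2, at 258 and 263 CPM. This library decided the value: without filtered-air TAC replicate 2 the difference was 1.13, with an edgeR adjusted p of 0.316. Without filtered-air TAC replicate 1 it was 0.41. In sham hearts the difference in Cilp was 0.02 ± 0.32 (interval -0.66 to 0.70), and its sign turned when single libraries were left out. The interaction for Cilp, which sets the TAC differences of the exposures against each other and so is built from values used in the choice, was 0.63 ± 0.43 (interval -0.28 to 1.54, unadjusted edgeR p 0.161, adjusted 0.999993). It was 0.38 without filtered-air TAC replicate 1, 1.11 without filtered-air TAC replicate 2 and 1.61 without the 4 Alb-rich libraries.

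Itih2 was 1.13 ± 0.62 log2 higher in diesel than in filtered-air TAC hearts (SE, interval -0.15 to 2.42). The unadjusted edgeR p was 0.0808 and the adjusted p 0.999972. The libraries overlapped, with 3.19, 9.15 and 4.18 CPM in diesel TAC and 1.31, 4.26 and 1.91 CPM in filtered-air TAC. Without diesel TAC replicate 2, the library richest in Alb, the difference was 0.56, and without filtered-air TAC replicate 2 it was 1.76. Without all 4 Alb-rich libraries, which left 1 diesel TAC library, it was 1.39. In sham hearts Itih2 had 4 counts after diesel exhaust against 15 in filtered air, a scaled ratio of 0.288 (counting interval 0.0696 to 0.905). The sham libraries overlapped, and 4 of the 6 held fewer than 3 counts, so no test between sham hearts and no interaction is given for Itih2.

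Cthrc1 and Mgat5b gave wider intervals. Between TAC hearts Cthrc1 was 0.59 ± 0.77 log2 higher after diesel exhaust (SE, interval -1.02 to 2.19) and Mgat5b 0.57 ± 0.80 (-1.09 to 2.24), both with an edgeR adjusted p of 0.999972. Both intervals hold 0 as well as differences above 2 log2 units. For Cthrc1 the value ranged from 0.25 without diesel TAC replicate 1 to 1.47 without filtered-air TAC replicate 2. For Mgat5b it ranged from 0.24 without filtered-air TAC replicate 1 to 0.79 without diesel TAC replicate 1. For these as well no exposure difference in sham hearts and no interaction is given, because the counts of both genes were at or near the limit of 3 per library, with 7 Mgat5b counts in diesel sham replicate 1 as the one exception.

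**Figure D3:**
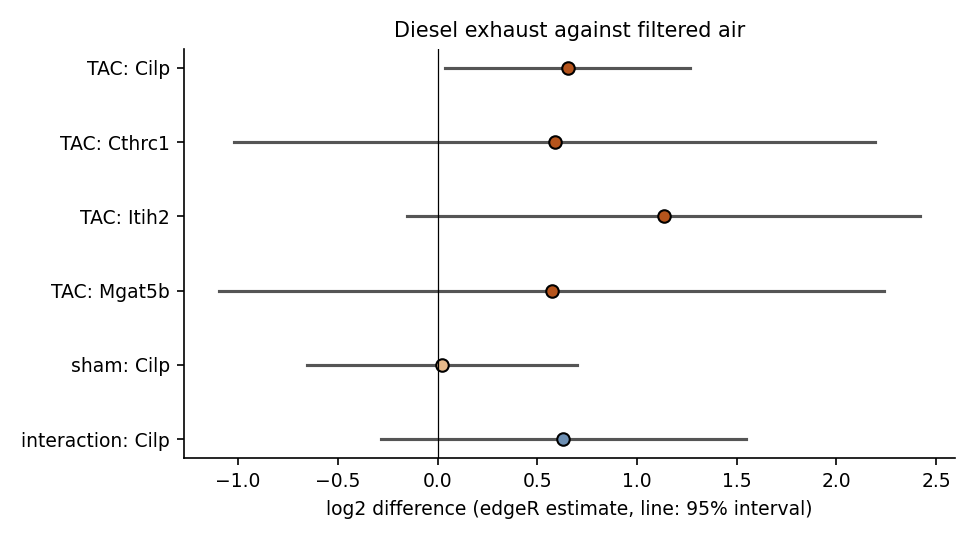
Difference between prenatal diesel exhaust and filtered air on the log2 scale, as fitted by edgeR, with its 95% interval as a line, for the 4 genes in TAC hearts and for Cilp in sham hearts and in the interaction. The interval for Cilp in TAC hearts lies just above 0 before correction, and every other interval crosses 0.

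The nearest relatives of these genes did not all follow them. Of 6 listed relatives of Cilp and Itih2, 4 were tested, 1 rose in filtered air and 2 after diesel exhaust, with median log2 differences of 1.71 and 3.17. Of all genes tested 0.609% and 1.75% rose. The 2 relatives called after diesel exhaust were Itih5 and Cilp2, and Cilp2 could pass the low-count filter only through its TAC libraries. The diesel median lies between Itih4 and Ambp, neither of them called and both highest in diesel TAC replicate 2, the library richest in Alb. Itih5, a heavy chain gene expressed outside the liver, lies next to Itih2 on the opposite strand, 22175 bases away in GENCODE M21. Itih5 had 10.5, 10.4 and 7.79 CPM in filtered-air sham and 16.0, 32.8 and 25.2 in filtered-air TAC. It had 14.0, 8.19 and 13.0 CPM in diesel sham and 25.2, 32.6 and 42.2 in diesel TAC. Every TAC library lay above every sham library. Itih5 rose by 1.36 ± 0.28 log2 in filtered air (edgeR adjusted p 0.0178) and by 1.50 ± 0.28 after diesel exhaust (adjusted p 0.00327). The filtered-air call was lost without any 1 of sham replicates 1, 2 and 3 or TAC replicates 2 and 3, with adjusted p from 0.054 to 0.178, and without the 4 Alb-rich libraries (adjusted p 0.135). Without those 4, diesel TAC held only replicate 3, the highest library for Itih5 at 42.2 CPM, so no diesel call is read there. The diesel call held in all 12 fits that left out 1 library. Its highest edgeR adjusted p, 0.0334, came without diesel TAC replicate 3.

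The liver heavy chains Itih1, Itih3 and Itih4 had another pattern. Itih4 had 8, 15 and 4 counts in filtered-air sham, 1, 23 and 6 in filtered-air TAC, 6, 3 and 4 in diesel sham and 34, 122 and 13 in diesel TAC. The maximum was diesel TAC replicate 2, the library richest in Alb. Itih1 and Itih3 reached their maxima of 34 and 57 counts in that library as well, and so did Ambp, which encodes the bikunin light chain, with 85 counts. Itih1 and Itih3 did not pass the filter on low counts. Itih4 differed by 3.18 ± 0.98 log2 after diesel exhaust (adjusted p 0.0969) and 0.01 ± 0.95 in filtered air. In filtered-air TAC the Itih5 levels exceeded sham in all 3 libraries, and the Itih4 levels did not. Those of Itih2 did so too, but Itih2 was chosen for its rise after TAC.

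**Figure D4:**
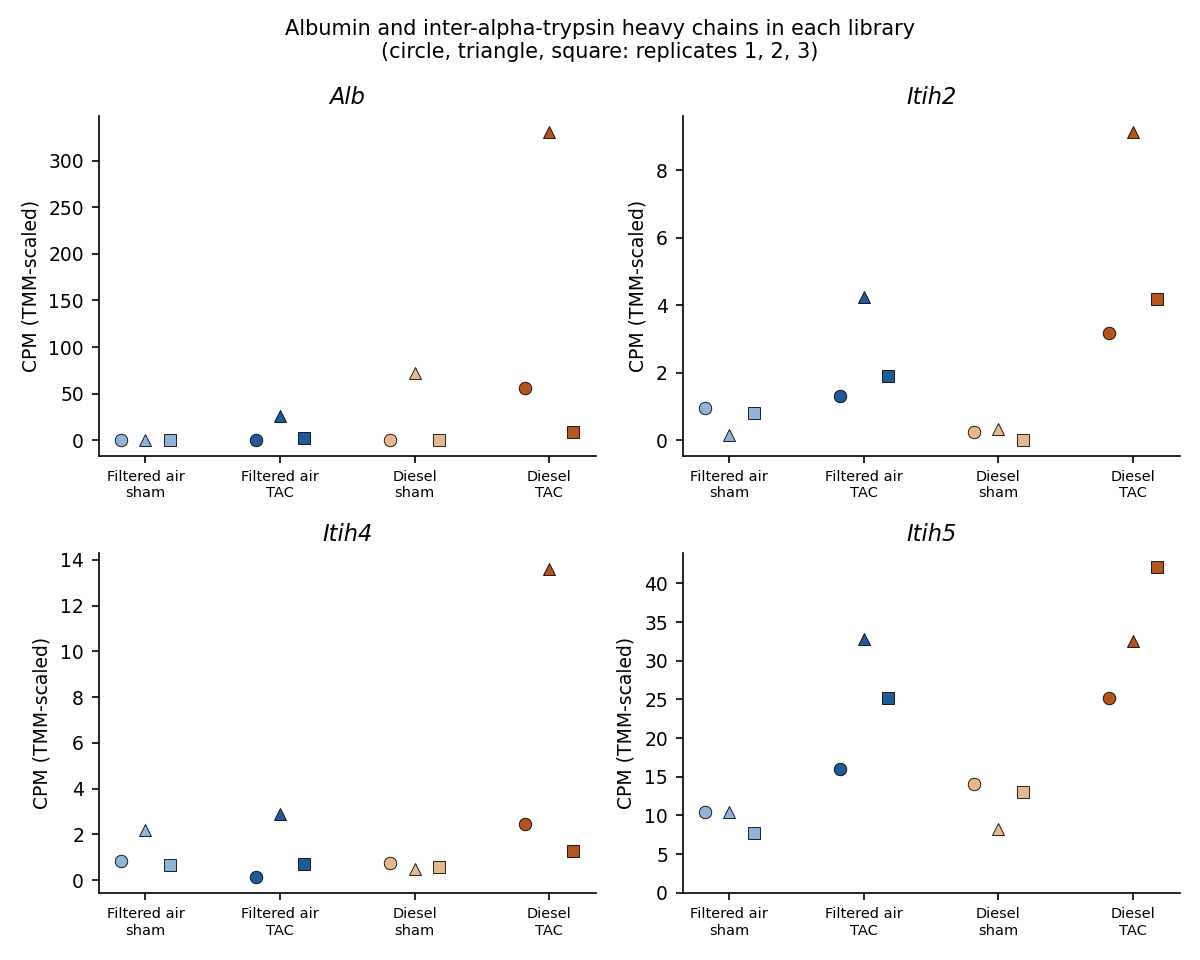
TMM-scaled CPM of Alb and of 3 heavy chain genes in every library, with replicates 1, 2 and 3 as circle, triangle and square. Itih4 peaks in diesel TAC replicate 2 as Alb does, and Itih5 is above sham in all 6 TAC hearts. Itih2, chosen for its rise after TAC, is highest in that same diesel library. The part of hepatocyte genes in its values was not tested.

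Cilp2, the paralog of Cilp, was scarce. It held 2, 1 and 4 counts in filtered-air sham, 8, 19 and 7 in filtered-air TAC, 0, 0 and 2 in diesel sham and 51, 16 and 9 in diesel TAC. TAC libraries lay above sham in both exposures. No sham library held more than 4 counts, so Cilp2 could pass the low-count filter only through its TAC libraries. That favours a rise in advance, and its fitted values are given as a description. The fitted rise was 4.28 ± 1.09 log2 after diesel exhaust (edgeR adjusted p 0.0312), and the filtered-air difference of 2.06 ± 0.93 did not pass (adjusted p 0.407). The diesel call was lost without diesel sham replicate 1 or 2 or diesel TAC replicate 1 or 2, at adjusted p of 0.074 to 0.171. Without the 4 Alb-rich libraries Cilp2 did not pass the low-count filter and was not tested. Mgat5, which encodes the ubiquitous paralog of the Mgat5b enzyme acting on N-glycans, stood at 16.5, 16.6, 16.3 and 17.4 CPM in the 4 groups in the order filtered-air sham, filtered-air TAC, diesel sham and diesel TAC. Its difference was 0.01 ± 0.23 log2 in filtered air and 0.10 ± 0.23 after diesel exhaust, neither past the threshold. The flanking genes Parp16 and Clpx beside Cilp, Fzd6 and Slc25a32 beside Cthrc1, Kin beside Itih2, and Mfsd11 and Sec14l1 beside Mgat5b also missed the threshold in both exposures.

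Pathway lists were set around the known roles of the 4 products, and are read against the share of all tested genes that rose, 0.609% in filtered air and 1.75% after diesel exhaust, or fell, 0.22% and 1.49%. In edgeR with all libraries no listed pathway gene fell. Acta2, the smooth muscle actin gene of the fibroblast list, fell after diesel exhaust with DESeq2, without the low-count filter, and without filtered-air TAC replicate 2 or 3, against -0.97 ± 0.27 log2 and an edgeR adjusted p of 0.0518 with all libraries. The median log2 difference over all genes was 0.01 in filtered air and 0.00 after diesel exhaust. The lists were not tested as sets.

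The list of activated fibroblast and matricellular genes, to which Cilp and Cthrc1 are linked by their known cell of origin, held the most genes that rose: 12 of 23 in filtered air and 20 of 23 after diesel exhaust, with median log2 differences of 1.63 and 1.95. Col8a1, a short-chain collagen of vessels and fibrotic heart, rose by 2.46 ± 0.24 and 2.98 ± 0.24 log2. Fn1, fibronectin, rose by 1.63 ± 0.21 and 1.86 ± 0.21, Postn by 2.94 ± 0.33 and 3.99 ± 0.34, and the collagen crosslinking enzyme gene Loxl2 by 1.58 ± 0.27 and 1.97 ± 0.28, with edgeR adjusted p of at most 0.00576. These 4 genes passed in both exposures in all 12 fits that left out 1 library. The count in filtered air fell to 6 without filtered-air sham replicate 3, and the count after diesel exhaust to 13 without diesel sham replicate 1 or 3 and to 12 without diesel TAC replicate 3. Fibroblast markers moved in the same direction, with sums of 1692 to 1840 CPM in filtered-air sham, 2272 to 3477 in filtered-air TAC, 1603 to 2209 in diesel sham and 3127 to 3476 in diesel TAC. Of the 12 markers, 4 rose in filtered air and 7 after diesel exhaust. The filtered-air count was 2, 1 and 0 without sham replicates 1, 2 and 3 in turn, and 1 without TAC replicate 2. The 10 cardiomyocyte markers moved the other way, with sums of 114325 to 154059 CPM in filtered-air sham, 84330 to 135382 in filtered-air TAC, 112741 to 151140 in diesel sham and 94661 to 100396 in diesel TAC, the diesel groups not overlapping. Of these, 0 were called in filtered air and 1, Tnni3, fell after diesel exhaust, against 3 with DESeq2, without the low-count filter, or without filtered-air TAC replicate 1 or 2. Tnni3 gave way to Ryr2 without diesel sham replicate 2, and 0 cardiomyocyte markers passed without filtered-air sham replicate 3, filtered-air TAC replicate 3, diesel sham replicate 1, diesel TAC replicate 2 or 3, or the Alb-rich libraries. Without the robust option of edgeR, 0 cardiomyocyte markers passed as well. The part of either marker list in the values of the 4 genes was not tested. In these whole-heart samples, more fibroblasts and more RNA per fibroblast cannot be told apart.

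Of 18 genes of the TGF-beta pathway, which Cilp is known to restrain, 2 rose in filtered air and 5 after diesel exhaust, with medians of 0.44 and 0.54. Ltbp2, a latent TGF-beta binding protein family member of elastic fibres, rose by 3.23 ± 0.42 and 4.44 ± 0.43 log2 (edgeR adjusted p 0.00241 and 9.81e-05). The ligand genes Tgfb2 and Tgfb3 rose after diesel exhaust, by 1.67 ± 0.30 and 1.49 ± 0.29 (adjusted p 0.00250 and 0.00455), while their filtered-air values of 0.65 and 0.70 did not pass. The filtered-air count fell to 1 without sham replicate 1 or 3. The diesel count fell to 3 without diesel sham replicate 2 or 3 or any 1 diesel TAC library, and without the 4 Alb-rich libraries.

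Of 9 tested genes of the insulin-like growth factor axis, with which Cilp has also been linked, 1 rose in filtered air and 3 after diesel exhaust, with medians of 0.19 and 0.37. Igfbp7, a secreted binding protein, rose by 1.10 ± 0.23 and 1.57 ± 0.23 log2 (edgeR adjusted p 0.0211 and 0.000422). Igf1 rose by 1.71 ± 0.29 after diesel exhaust (adjusted p 0.00159), and Igfbp5 by 0.74 ± 0.20 (adjusted p 0.0426). The Igfbp7 call in filtered air was lost without sham replicate 2 or 3 or TAC replicate 1 or 2, and the list's count rose to 2 without TAC replicate 3. The Igfbp5 call was lost without any of 7 libraries, namely filtered-air sham replicates 2 and 3, filtered-air TAC replicate 3, diesel sham replicates 1 and 3 and diesel TAC replicates 1 and 2, with adjusted p of 0.052 to 0.196.

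Of 11 tested genes for hyaluronan synthesis, breakdown and binding, the polymer to which Itih heavy chains attach, 2 rose in filtered air and 1 after diesel exhaust, with medians of 0.28 and 0.56. Vcan, the hyaluronan-binding proteoglycan versican, rose by 1.61 ± 0.28 and 1.81 ± 0.28 log2 (edgeR adjusted p 0.0103 and 0.00198). Cd44, the main hyaluronan receptor, rose by 1.35 ± 0.27 in filtered air (adjusted p 0.0150), and its diesel value of 0.93 ± 0.27 did not pass (adjusted p 0.0638). The filtered-air count was 0 without sham replicate 1 or 3, and 1 without sham replicate 2, where Vcan was lost, and without TAC replicate 2 or the 4 Alb-rich libraries, where Cd44 was lost. The diesel count was 2 without diesel TAC replicate 1.

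No gene of the other 3 lists passed the threshold in edgeR. These were 7 tested branching N-acetylglucosaminyltransferases, the enzyme class of Mgat5b, with medians of 0.01 and 0.10 in filtered air and after diesel exhaust, 12 tested genes of O-mannosyl glycosylation and dystroglycan, the known acceptor pathway of the Mgat5b enzyme, with -0.16 and -0.03, and 20 tested genes of planar polarity and noncanonical Wnt signalling, to which Cthrc1 has been linked, with 0.00 and 0.00. Mgat5b, whose TAC libraries lay above sham in each exposure, had no counterpart among the listed members of its enzyme class that passed the threshold.

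**Figure D5:**
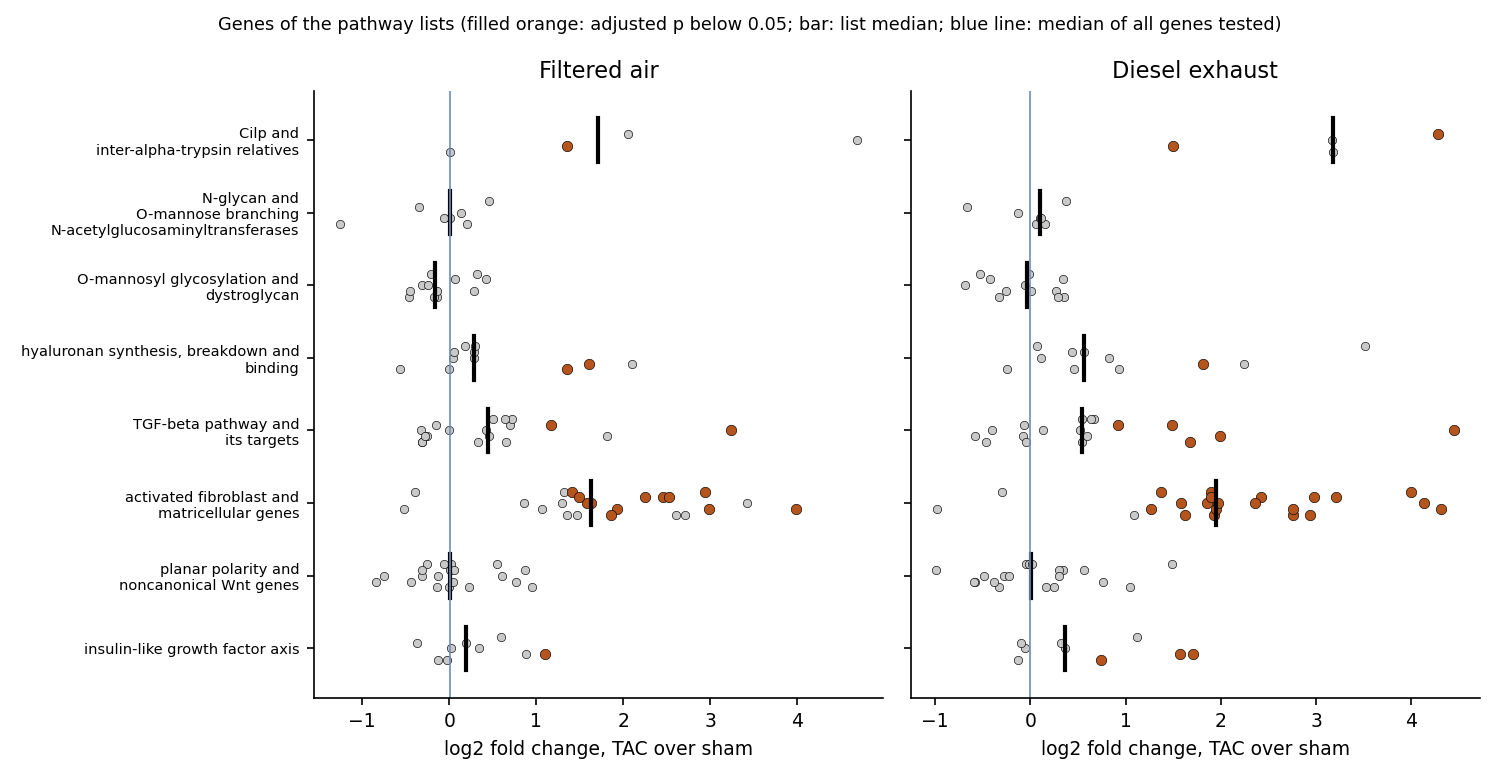
Log2 difference between TAC and sham of each tested gene in the 8 lists, in filtered air (left) and after diesel exhaust (right), with genes past an adjusted p of 0.05 in orange, the list median as a bar and the median of all genes tested as a blue line. Among lists of more than 4 tested genes, the activated fibroblast and matricellular genes lie furthest right, with medians of 1.63 and 1.95. The relatives of Cilp and Itih2, with 4 tested genes, have higher medians of 1.71 and 3.17.

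Markers of chondrocytes and neurons, the cells known for Cilp and Mgat5b, were scarce. The chondrocyte list summed to 1.38 to 7.46 CPM in filtered-air sham, 8.72 to 15.9 in filtered-air TAC, 2.81 to 5.85 in diesel sham and 9.04 to 16.3 in diesel TAC. These sums were higher in every TAC library than in sham of the same exposure. Of its 12 genes, 7 averaged below 0.5 CPM, with the cartilage genes Matn1 and Snorc at 0 in every library. The neuron list, relevant to Mgat5b, summed to 5.50 to 10.1, 12.2 to 13.9, 8.17 to 15.7 and 12.5 to 20.6 CPM in the same order of groups, and 5 of its 10 genes averaged below 0.5 CPM. The part of either list in the Cilp or Mgat5b values was not tested. Markers of macrophages and monocytes summed to 203 to 292, 304 to 502, 217 to 419 and 403 to 434 CPM in that order of groups. Of these 12, 1, Mrc1, rose after diesel exhaust in edgeR and 2 did with DESeq2 or without diesel sham replicate 2. That count was 0 without filtered-air sham replicate 2 or 3, diesel sham replicate 1 or diesel TAC replicate 1 or 3. It was also 0 without the robust option of edgeR. Markers of smooth muscle and pericytes summed to 665 to 722, 592 to 664, 608 to 737 and 554 to 617 CPM, and 1 of 8, Abcc9, fell after diesel exhaust in edgeR and 1 with DESeq2, but 0 without diesel sham replicate 1 or 3 or any 1 diesel TAC library. Abcc9 was the largest of the 8 in every library, at 399 to 470, 265 to 348, 351 to 503 and 234 to 287 CPM. The sums therefore mostly follow this gene. The median log2 difference of the 8 was 0.09 in filtered air and 0.40 after diesel exhaust. Neither the macrophage nor the smooth muscle list had a call in filtered air in edgeR with all libraries. Endothelial markers summed to 823 to 865, 840 to 972, 789 to 818 and 857 to 960 CPM in the same order of groups, the diesel groups not overlapping. Those of mesothelium and epicardium lay between 4.47 and 22.3 CPM. Both lists had 0 calls in edgeR with all libraries and in DESeq2.

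Across all 12 libraries, the genes whose log2 CPM followed each chosen gene most closely were found among genes with a mean of at least 1 CPM. These correlations are a description over 12 libraries that share the division between sham and TAC, so any gene that responds to surgery scores high. For Cilp they were Fstl1 (r = 0.99), a secreted glycoprotein gene of the follistatin family, Itgbl1 (0.99), the natriuretic peptide gene Nppa (0.98), the small proteoglycan gene Bgn (0.98) and Ltbp2 (0.98). For Cthrc1 they were the collagen-binding proteoglycan gene Lum (0.97), the elastic fibre gene Fbln5 (0.97), Postn (0.95) and Cd34 (0.95). For Itih2 they were Pamr1 (0.95), Cdv3 (0.94), the NADPH oxidase gene Nox4 (0.93), Bgn (0.93) and Ly86 (0.93). For Mgat5b they were the tetraspanin gene Cd9 (0.95), Itih5 (0.94), Adcy7 (0.93), the cardiomyocyte gene Xirp2 (0.92) and Aqp8 (0.92).

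The Pamr1 pattern is given as that of the closest match of Itih2. Pamr1 had 2.96, 2.20 and 3.73 CPM in filtered-air sham and 1.02, 1.17 and 0.721 in diesel sham, so that the sham mean was lower after diesel exhaust. Its TAC libraries had 5.84, 13.3 and 6.93 CPM in filtered air and 17.4, 17.2 and 15.5 after diesel exhaust, where the mean was higher. Among the 4 chosen genes themselves, r over the 12 libraries ran from 0.79 for Cthrc1 with Mgat5b to 0.91 for Cilp with Cthrc1. Within the 6 TAC libraries alone it ran from 0.35 for Cthrc1 with Itih2 to 0.82 for Cilp with Itih2.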

How the data were processed

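Gene counts of 12 mouse heart libraries were used as deposited by the authors, as 1 table of whole read counts per Entrez gene. Per the submitters' processing notes the tools included cutadapt 1.6, Subread 1.4.2 and featureCounts with genome build mm10. The sources used here do not give the strand setting, the handling of multiply mapped reads or the annotation release, so reads of near-identical paralogs may be shared.

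Symbols came from RefSeq and matched 25275 of 27179 genes. Counts were fitted over all 12 libraries with edgeR 4.0.16 in R 4.3.3 (TMM factors, filterByExpr with a minimum count of 10, robust quasi-likelihood, 1 mean per group, 8 residual degrees of freedom, Benjamini-Hochberg threshold 0.05). DESeq2 1.42.0 was an alternative. The edgeR script was tested on simulated data. Ratios of summed counts have exact conditional 95% intervals.

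The 4 genes, the pathway lists and the marker lists were chosen with earlier results of these data known. Named besides the 4 genes were the relatives, Mgat5, Postn, Col1a1 and Nppb, up to 4 called genes a list that averaged 1 CPM or more, and the 5 genes with the highest Pearson r (log2 CPM, prior count 2). Of the genes this rule named, 2 are not reported here. Flanking genes, Ptprf, Alb, Trf, Acta2, Tnni3, Ryr2, Mrc1 and Abcc9 were named after their values were seen. Replicates carry no numbers in the labels and are numbered in accession order. Alternatives were DESeq2, RLE factors, no low-count filter, no robust option, no mitochondrially encoded genes, each library left out, and the Alb-rich libraries left out.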

Additional observations from a re-analysis of the deposited data

How the results depend on the processing

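The number of genes called between TAC and sham in filtered air, 113, was 239 with DESeq2, 247 without the low-count filter, 48 without the 4 libraries above 10 CPM of Alb, and 39 to 143 when each library was left out in turn. After diesel exhaust the 442 calls became 173 without the 4 Alb-rich libraries and 188 to 530 with 1 library left out. Calls between exposures in TAC hearts went from 0 to 1 with DESeq2, without the low-count filter and without the Alb-rich libraries. The interaction calls went from 0 to 1 with DESeq2 and without the filter. The exposure difference of Cilp in sham hearts changed sign to -0.0867 without filtered-air sham replicate 1, to -0.2997 without diesel sham replicate 2 and to -0.2996 without the Alb-rich libraries, against 0.0213 with all, and ran from -0.2997 to 0.188 with 1 library left out. The log2 ratio of Cthrc1 in filtered air ran from 2.23 to 4.32 with 1 library left out. In the other ratios the log2 values ran, in filtered air and after diesel exhaust, from 3.13 to 3.84 and 4.08 to 4.53 for Cilp, from 1.27 to 2.41 and 4.14 to 5.24 for Itih2, and from 4.55 to 5.41 and 2.09 to 2.96 for Mgat5b, and from 3.99 to 4.95 for Cthrc1 after diesel exhaust. The cause of these shifts was not tested.

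Leaving out the Alb-rich libraries, an alternative added after seeing the data, left diesel TAC with 1 library, assumed to vary like the others. The exposure difference in TAC hearts was then 1.31 for Cilp (edgeR adjusted p 0.0988), 1.63 for Cthrc1, 1.39 for Itih2 and 1.20 for Mgat5b. None of the 4 genes passed the threshold between exposures, or Cilp in the interaction, under any alternative run. With a prior count of 0.5, 5 of the 5 genes most like Cilp and 2 of 5 for each of the other 3 genes stayed the same. Leaving out the sham library that held all counts of a group (filtered-air replicate 1 or diesel replicate 1 for Mgat5b, diesel replicate 3 for Cthrc1) gave no ratio. The sham exposure difference and the interaction of Cthrc1, Itih2 and Mgat5b were part of the main fit but are not given. They were not followed through the alternatives. Most sham counts of these genes were at or near the floor. No paired analysis was possible because the labels give the groups no shared replicate numbers. At 3 counts a library, levels under 0.218 to 0.501 CPM could not be told from 0.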
